A study of Mus musculus with 10 samples.

Results

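Gbp2, Gbp3, Gbp6, Gbp7, Irgm1, Irgm2, Igtp, Iigp1 and Ifi47 encode GTPases that mouse cells make in response to interferon gamma. These 9 genes were taken from a list of family members and followed through mouse mammary tumors, out of 18193 genes that the arrays measured with at least 1 probe set assigned to a single gene. A probe set is a group of short array oligonucleotides that together give 1 signal for a transcript. Each of the 9 genes was read by the single-gene probe set with the highest mean over the 10 arrays. Another 4 probe sets, for Gbp2, Gbp6, Gbp7 and Iigp1, were set beside them. The tumors arose spontaneously in female FVB/N-Tg(MMTVneu) mice (Tg-neu), in which the mouse mammary tumor virus promoter drives the neu proto-oncogene mainly in mammary epithelium. Once a first tumor was found, the animals received intraperitoneal injections of lovastatin (Lov, an inhibitor of HMG-CoA reductase) at 10 mg/kg or of its ethanol vehicle (Vhcl), 3 per week over 6 weeks. All groups carried the transgene. RNA from 5 Lov tumors (A19, A48, A50, A55 and AB10) and 5 Vhcl tumors (A45, A49, A54, A59 and AB11) was hybridized, 1 tumor per array. The treatment label of the control tumors says vehicle, whereas their free-text description calls them not treated. The labels count 5 mice in each group and do not say which tumor came from which mouse, so the p-values below measure the spread between these tumors. The RNA came from whole tumors, in which tumor cells, vessels and leukocytes were measured together, and fewer cells of a type and less RNA per cell cannot be told apart. Of 3 keratins of mammary luminal epithelium, Krt18 and Krt8 were high in both groups, with Krt18 at a mean log2 signal of 12.11 in Lov tumors and 12.41 in Vhcl tumors, and Krt8 at 11.83 in Lov tumors and 12.03 in Vhcl tumors. The signal of Krt19 was low or variable, at 4.67 to 4.95 in Lov tumors and 4.27 to 8.24 in Vhcl tumors.

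Interferon gamma, released mainly by activated T and NK cells, binds the receptor formed by Ifngr1 and Ifngr2 and induces several GTPase families in macrophages, epithelial cells and many other cell types. The guanylate-binding proteins (GBPs) are large dynamin-like GTPases that assemble on vacuoles holding parasites or bacteria and on bacteria in the cytosol. The immunity-related GTPases (IRGs) fall into regulators (Irgm1, Irgm2 and Igtp), which stay on membranes of the host cell and hold their partners inactive there, and effectors such as Iigp1 and Ifi47, which load onto the vacuole around a pathogen and help to disrupt it. Many of these genes respond to type I interferon as well. They have been studied mostly in infected cells.

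In the Lov tumors, Gbp3, Gbp7 and the 3 IRG regulators had lower signals than in the Vhcl tumors, by 1.50-fold to 1.95-fold. The effector Iigp1 and Gbp6 lay at nearly the same level in both groups, and Gbp2 and Ifi47 lay between these extremes with overlapping tumors. Signals were compared on the log2 scale as Lov minus Vhcl, with limma's moderated test. Of the 9 genes, 5 were lower in Lov tumors at an unadjusted p under 0.05 (Gbp3, Gbp7, Irgm1, Irgm2 and Igtp) and 0 were higher. Over all 18193 genes the same criterion called 2.75% lower and 3.5% higher. The difference was negative for 8 of the 9 genes, against 49.3% of all genes, and only Gbp3 had all 5 Lov tumors below all 5 Vhcl tumors, which held for 0.346% of all genes. The median difference of the 9 genes was -0.59, beside 0.002 over all genes. By subfamily the median was -0.50 for the 4 GBPs, -0.64 for the 3 IRG regulators and -0.22 for the 2 IRG effectors. After Benjamini-Hochberg adjustment over all 45037 probe sets 0 of the 9 genes passed 0.05 (limma, adjusted p from 0.857 to 0.998), as was the case for 0.0% of all probe sets, whose lowest adjusted p was 0.369. None of the 9 reached a 2-fold difference. The family and the other lists below were drawn up with earlier results of these tumors known, so the counts describe these tumors and do not test the family.

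**Figure D1:**
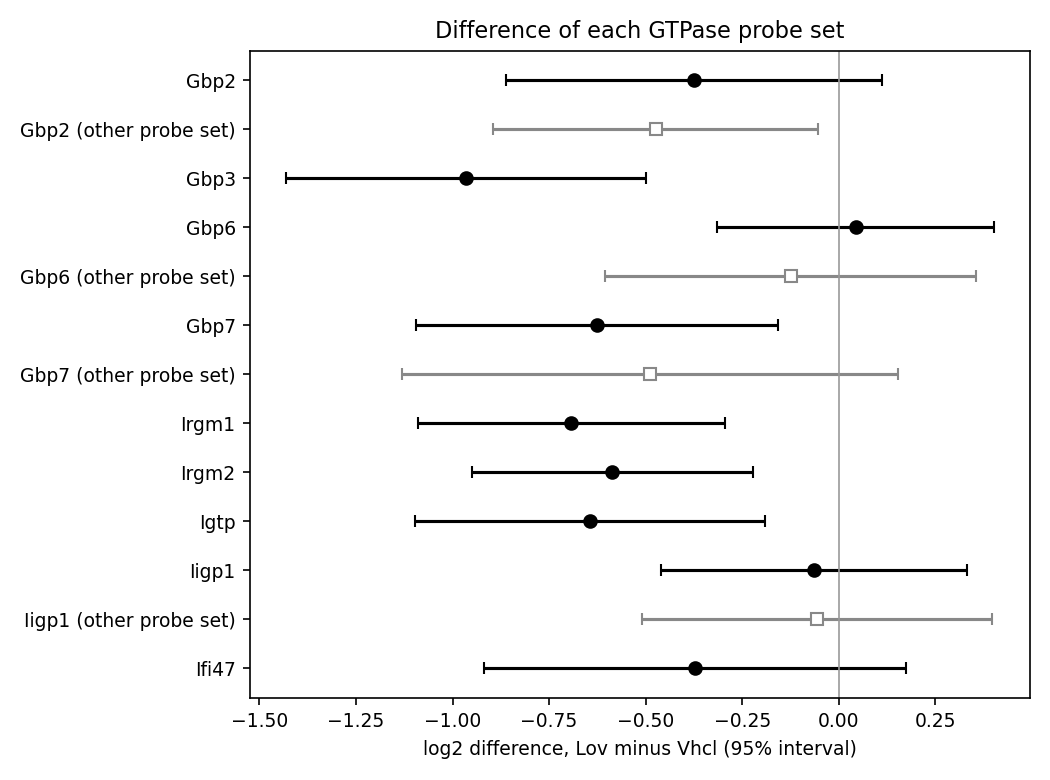
Log2 difference (x axis, Lov minus Vhcl, 5 tumors each) of the 9 main probe sets (filled circles) and the 4 other probe sets of the same genes (open squares), with bars for the 95% interval of limma's fit. The intervals of Gbp3, Gbp7, Irgm1, Irgm2 and Igtp lie below 0, as does that of the second Gbp2 probe set, and the other intervals include 0.

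Most of the genes lie in clusters, and the sequences before their starts share letters that interferon-activated factors are known to bind, which is why they are shown here. In the RefSeq annotation (GRCm38.p6), Gbp7, Gbp3 and Gbp2 lie near one another on chromosome 3. Igtp and Irgm2 are next to each other on chromosome 11, which also holds Irgm1 and Ifi47. The 250 bases before each annotated start were available for 7 of the 9 genes (all but Gbp6 and Iigp1) and were searched on both strands. The core of the interferon-stimulated response element (ISRE), GAAANNGAAA, was found in 6 of these 7 genes (85.7%), against 936 of 27025 annotated genes (3.463%). The stretches around it are printed with the matching letters in capitals, each on the strand of its gene, so that the GBP genes show the motif reversed and complemented.
Gbp7, chr3:142530263-142530312 (+): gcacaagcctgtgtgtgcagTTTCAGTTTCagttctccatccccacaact
Gbp3, chr3:142559979-142560034 (+): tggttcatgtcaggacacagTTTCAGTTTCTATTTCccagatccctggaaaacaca
Gbp2, chr3:142620584-142620633 (+): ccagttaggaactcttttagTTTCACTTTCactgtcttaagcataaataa
Irgm1, chr11:48871421-48871470 (-): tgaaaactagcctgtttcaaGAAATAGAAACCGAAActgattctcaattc
Igtp, chr11:58199502-58199551 (+): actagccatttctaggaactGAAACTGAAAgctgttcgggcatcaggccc
Irgm2, chr11:58214893-58214942 (+): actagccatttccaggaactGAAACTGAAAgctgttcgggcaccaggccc
Gbp3 and Irgm1 carried 2 overlapping matches each, which gives the longer runs of capitals. The stretches of the neighbors Igtp and Irgm2 were identical at 48 of 50 bases. All ISRE matches lay close to the start, from 64 bases before it in Irgm2 to 15 bases before it in Irgm1. The gamma-activated site (GAS), TTCNNNGAA, was found in 3 of the 7 genes (42.9%), with 2 matches in Gbp7 and 1 each in Igtp and Irgm2, against 2197 of all 27025 genes (8.13%). No GAS match overlapped an ISRE match. Ifi47 had neither motif in its window. Among the genes listed below, the ISRE core was found in 8 of 21 type I interferon targets (38.1%) and 3 of 21 other interferon gamma targets. A match is a description of letters, and binding was not measured. The 6 genes with an ISRE match include the 5 genes with a lower signal at an unadjusted p under 0.05 and also Gbp2. Only 7 genes had a window, and Gbp6 and Iigp1, with nearly the same level in both groups, had none. This overlap therefore cannot tell whether the motif goes with a lower signal.

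**Figure D2:**
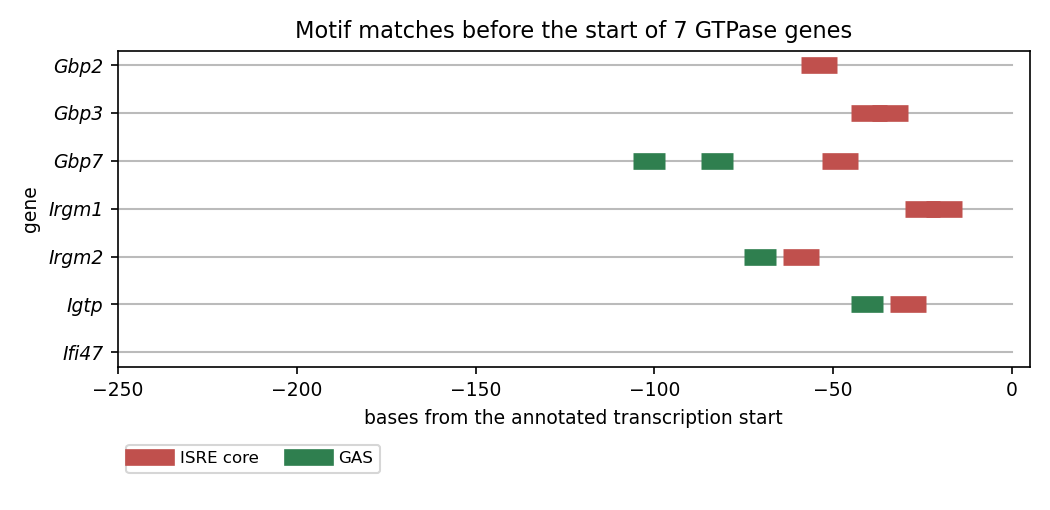
Matches to the ISRE core (red) and the GAS (green) in the 250 bases before the annotated start of 7 GTPase genes (x axis, bases from the start at 0, all genes drawn in the direction of transcription). The ISRE matches of 6 genes lie within 64 bases of the start, and the line of Ifi47 is empty.

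Among the GBPs, Gbp3 differed the most between the groups. Gbp3, one of the GBPs that gather on the vacuole of Toxoplasma gondii, had log2 signals of 7.98, 7.82, 8.16, 7.86 and 7.62 in Lov tumors A19, A48, A50, A55 and AB10, against 8.33, 9.40, 8.96, 9.25 and 8.33 in Vhcl tumors A45, A49, A54, A59 and AB11. The highest Lov tumor, A50, lay just below the lowest Vhcl tumors, A45 and AB11, and the other 3 Vhcl tumors stood well above. The means were 7.89 ± 0.20 in Lov tumors and 8.85 ± 0.50 in Vhcl tumors (SD, n = 5 each), a difference of -0.97 (standard error 0.21; 1.95-fold lower with Lov). The difference had an unadjusted limma p of 0.000746 and an adjusted p of 0.857. For Gbp3 by itself, an exact permutation test gave a 2-sided p of 0.00794, the smallest that 5 tumors against 5 allow.

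Gbp7, a GBP linked to assembly of the phagocyte NADPH oxidase on vacuoles, had log2 signals of 7.91, 7.63, 7.87, 7.72 and 7.38 in Lov tumors A19, A48, A50, A55 and AB10, against 8.36, 8.79, 8.24, 8.72 and 7.53 in Vhcl tumors A45, A49, A54, A59 and AB11. Vhcl AB11 lay within the Lov range and the other 4 Vhcl tumors above it. The mean was 7.70 ± 0.21 in Lov tumors and 8.33 ± 0.50 in Vhcl tumors (SD, n = 5 each), a difference of -0.63 (standard error 0.22). By limma its unadjusted p was 0.0133 and its adjusted p was 0.926, and the exact permutation test gave a 2-sided p of 0.0476. The 2 tumors whose IDs begin with AB, Lov AB10 and Vhcl AB11, held the lowest Gbp7 signal of their groups. A second Gbp7 probe set showed the same 2 tumors lowest, with means of 7.08 ± 0.55 in Lov tumors and 7.57 ± 0.54 in Vhcl tumors (SD, n = 5 each), and a difference of -0.49 (standard error 0.29; limma, unadjusted p = 0.123, adjusted p = 0.971). Over the 10 tumors the signals of both Gbp7 probe sets had a Pearson correlation of 0.832.

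Gbp2, a GBP that carries an isoprenyl anchor at its end and gathers on parasite and bacterial vacuoles, had log2 signals of 8.60, 8.61, 8.98, 8.65 and 8.95 in Lov tumors A19, A48, A50, A55 and AB10, against 8.24, 9.67, 9.14, 9.24 and 9.37 in Vhcl tumors A45, A49, A54, A59 and AB11. Vhcl A45 was the lowest of all 10 tumors, while the other 4 Vhcl tumors were above every Lov tumor. The means, 8.76 ± 0.19 in Lov tumors and 9.13 ± 0.54 in Vhcl tumors (SD, n = 5 each), differed by -0.37 (standard error 0.22), within the spread between tumors (limma, unadjusted p = 0.120, adjusted p = 0.971; exact permutation test, 2-sided p = 0.183). The size rested on single Vhcl tumors. The difference was -0.60 without Vhcl A45 (limma, unadjusted p = 0.00123, adjusted p = 0.81) and -0.24 without Vhcl A49 (limma, unadjusted p = 0.286, adjusted p = 0.983). As A45 was the lowest and A49 the highest Vhcl tumor for Gbp2, leaving out A45 had to widen the difference and leaving out A49 to narrow it. The second Gbp2 probe set gave means of 8.25 ± 0.23 in Lov tumors and 8.72 ± 0.43 in Vhcl tumors (SD, n = 5 each), a difference of -0.47 (standard error 0.19; limma, unadjusted p = 0.0306, adjusted p = 0.932; exact permutation test, 2-sided p = 0.0714). Both Gbp2 probe sets ordered the tumors much alike (Pearson r = 0.891 over the 10 tumors). The main Gbp2 probe set is of a type that can share sequence with related genes, and its signal may include a near relative.

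Gbp6, another GBP of Toxoplasma vacuoles, had log2 signals of 7.18, 7.21, 7.03, 7.39 and 7.33 in Lov tumors A19, A48, A50, A55 and AB10, against 6.61, 7.29, 7.03, 7.49 and 7.50 in Vhcl tumors A45, A49, A54, A59 and AB11. The Lov tumors lay inside the range of the Vhcl tumors, whose lowest was again A45. The mean was 7.23 ± 0.14 in Lov tumors and 7.18 ± 0.37 in Vhcl tumors (SD, n = 5 each), a difference of 0.04 with a 95% interval from -0.32 to 0.40 (limma, adjusted p = 0.998; exact permutation test, 2-sided p = 0.841). The second Gbp6 probe set gave a difference of -0.12 (standard error 0.22; limma, unadjusted p = 0.583), with means of 6.60 ± 0.40 in Lov tumors and 6.72 ± 0.40 in Vhcl tumors (SD, n = 5 each). The 2 probe sets of Gbp6 did not follow each other over the 10 tumors (Pearson r = 0.069), so the level of Gbp6 is uncertain and its sign depends on the probe set.

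**Figure D3:**
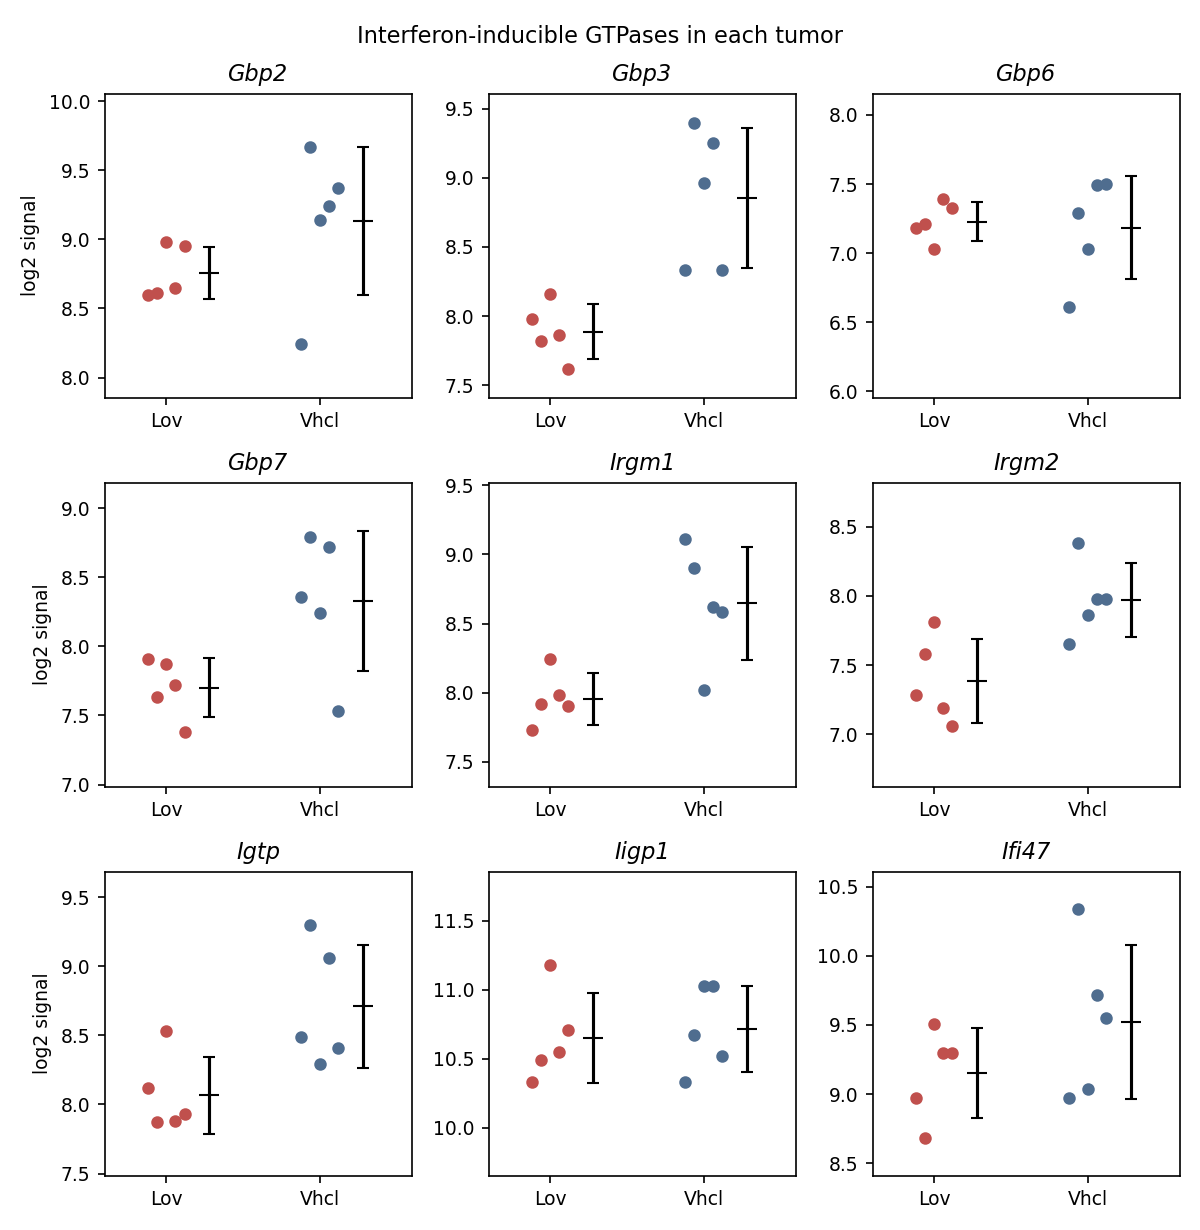
Log2 signal (y axis) of each GTPase in 5 Lov tumors (red) and 5 Vhcl tumors (blue); each point is a tumor, and the bars give the group mean ± SD. Every panel spans the same number of log2 units. Gbp3 is the panel without overlap (Lov at 8.16 or lower, Vhcl at 8.33 or higher), and in Gbp6 and Iigp1 the groups overlap throughout.

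The 3 IRG regulators were lower in the Lov tumors, each with 4 of 5 Lov tumors below the lowest Vhcl tumor. Irgm1, whose loss leaves mice open to many intracellular bacteria, had log2 signals of 7.73, 7.92, 8.24, 7.98 and 7.90 in Lov tumors A19, A48, A50, A55 and AB10, against 9.11, 8.90, 8.02, 8.62 and 8.58 in Vhcl tumors A45, A49, A54, A59 and AB11. Lov A50 and Vhcl A54 crossed over, and the groups were otherwise apart. The mean was 7.95 ± 0.19 in Lov tumors and 8.65 ± 0.41 in Vhcl tumors (SD, n = 5 each), a difference of -0.69 (standard error 0.18; 1.62-fold lower with Lov). Its unadjusted limma p was 0.00263 and its adjusted p 0.919, and the exact permutation test gave a 2-sided p of 0.0159.

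Irgm2, a regulator found at the Golgi membrane, had log2 signals of 7.28, 7.58, 7.81, 7.19 and 7.06 in Lov tumors A19, A48, A50, A55 and AB10, against 7.65, 8.38, 7.86, 7.98 and 7.98 in Vhcl tumors A45, A49, A54, A59 and AB11. Lov A50 alone reached into the Vhcl range, above Vhcl A45. The means were 7.38 ± 0.31 in Lov tumors and 7.97 ± 0.27 in Vhcl tumors (SD, n = 5 each), a difference of -0.59 (standard error 0.17; 1.50-fold lower with Lov; limma, unadjusted p = 0.00435, adjusted p = 0.919; exact permutation test, 2-sided p = 0.0159). Igtp, also called Irgm3 and found at the endoplasmic reticulum, had log2 signals of 8.12, 7.87, 8.53, 7.88 and 7.93 in Lov tumors A19, A48, A50, A55 and AB10, against 8.49, 9.30, 8.29, 9.06 and 8.41 in Vhcl tumors A45, A49, A54, A59 and AB11. Here Lov A50 lay above 3 of the Vhcl tumors, and Vhcl A49 and A59 stood well above the rest. Igtp averaged 8.07 ± 0.28 in Lov tumors and 8.71 ± 0.44 in Vhcl tumors (SD, n = 5 each), a difference of -0.64 (standard error 0.21; 1.56-fold lower with Lov). By limma its unadjusted p was 0.00922 and its adjusted p 0.919, and the exact permutation test gave a 2-sided p of 0.0317.

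The 2 IRG effectors showed no difference that exceeded the spread between tumors. Iigp1 (Irga6), an effector that loads onto parasite vacuoles, had log2 signals of 10.33, 10.49, 11.18, 10.55 and 10.71 in Lov tumors A19, A48, A50, A55 and AB10, against 10.33, 10.67, 11.03, 11.03 and 10.52 in Vhcl tumors A45, A49, A54, A59 and AB11. The groups covered the same range, with the highest tumor, A50, in the Lov group. The mean was 10.65 ± 0.33 in Lov tumors and 10.72 ± 0.31 in Vhcl tumors (SD, n = 5 each), a difference of -0.06 with a 95% interval from -0.46 to 0.33 (limma, adjusted p = 0.995; exact permutation test, 2-sided p = 0.817). A second Iigp1 probe set gave a difference of -0.06 as well, from means of 9.26 ± 0.42 in Lov tumors and 9.32 ± 0.32 in Vhcl tumors (SD, n = 5 each), and followed the first closely (Pearson r = 0.933 over the 10 tumors).

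Ifi47, also called Irgd, had log2 signals of 8.97, 8.68, 9.51, 9.30 and 9.30 in Lov tumors A19, A48, A50, A55 and AB10, against 8.97, 10.34, 9.04, 9.72 and 9.55 in Vhcl tumors A45, A49, A54, A59 and AB11. Vhcl A49, A59 and AB11 were above every Lov tumor, whereas Vhcl A45 and A54 lay among them. The means of 9.15 ± 0.33 in Lov tumors and 9.52 ± 0.56 in Vhcl tumors (SD, n = 5 each) differed by -0.37 (standard error 0.25; 95% interval from -0.92 to 0.17; limma, unadjusted p = 0.164, adjusted p = 0.979; exact permutation test, 2-sided p = 0.254). Without Vhcl A49 alone, the tumor with the highest Ifi47 signal, the difference of Ifi47 was -0.17 (limma, unadjusted p = 0.427). The differences of the effectors were not tested against those of the regulators.

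The GTPases tended to be high and low in the same tumors. To compare tumors, each gene was centered on its mean over the 10 tumors and the 9 centered log2 signals were averaged. These averages were -0.31 in Lov A19, -0.35 in Lov A48, 0.04 in Lov A50, -0.27 in Lov A55 and -0.30 in Lov AB10, against -0.09 in Vhcl A45, 0.65 in Vhcl A49, 0.08 in Vhcl A54, 0.47 in Vhcl A59 and 0.09 in Vhcl AB11. Lov A50 thus stood at the level of Vhcl A54 and AB11, above Vhcl A45, and Vhcl A49 and A59 stood above all others. Lov A50 held the highest signal of the Lov tumors for 7 of the 9 genes, Vhcl A49 the highest of the Vhcl tumors for 6, and Vhcl A45 the lowest of the Vhcl tumors for 6. Vhcl A45 did not lie low throughout, since it had the highest Irgm1 signal of the series. The regulators averaged -0.49 to 0.07 in the Lov tumors and -0.07 to 0.74 in the Vhcl tumors, and the effectors -0.43 to 0.33 in the Lov tumors and -0.36 to 0.49 in the Vhcl tumors. Without Lov A50, 4 genes (Gbp3, Irgm1, Irgm2 and Igtp) had all remaining Lov tumors below all Vhcl tumors. Without Vhcl A45 these were Gbp2, Gbp3 and Irgm2. Lov A50 and Vhcl A45 were singled out by these same signals, so leaving them out favors separation of the groups. No share over all genes was computed for these smaller sets of tumors.

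**Figure D4:**
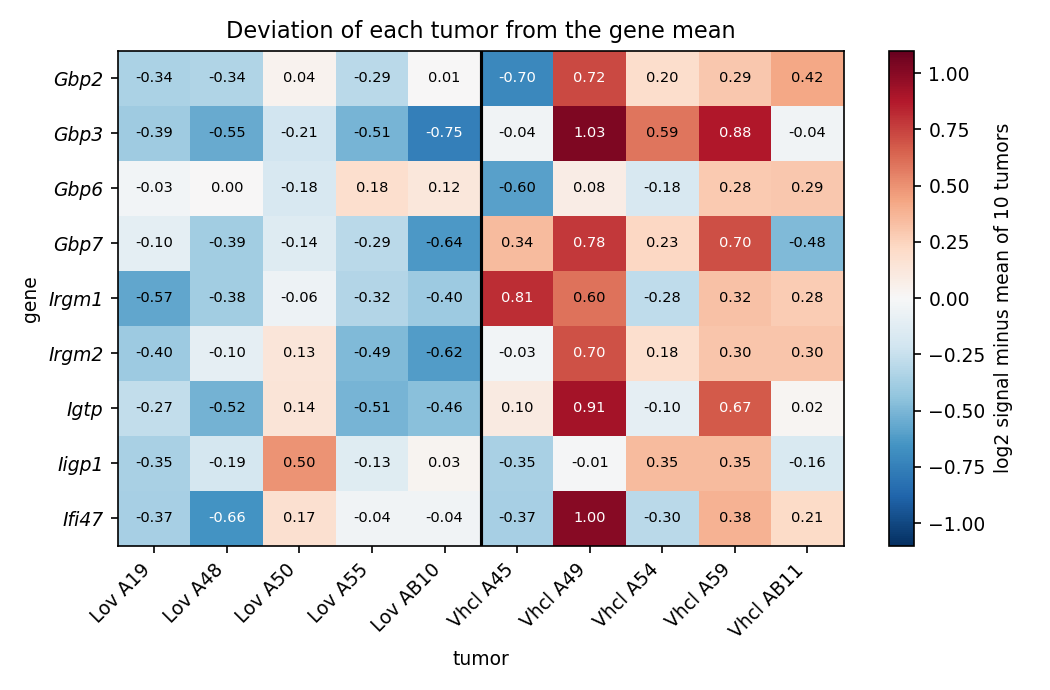
Log2 signal of each GTPase (down the page) in each tumor (across, 5 Lov tumors left of the black line and 5 Vhcl tumors right of it), given as the deviation from the mean of that gene over the 10 tumors; red is above and blue below the mean. Vhcl A49 and A59 are red for nearly all genes, and Lov A50 is the Lov tumor with the most genes above the mean (5 of 9).

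Pearson's r between the genes over the 10 tumors is given as a description, since all genes were read from the same arrays and share the difference between the groups. Its median over the 36 pairs was 0.553, and 33 pairs were positive. After the group means were removed, which leaves the differences among tumors of a group, the median was 0.399 and 31 pairs were positive. Neither value was computed over all pairs of genes on the arrays, so it was not tested whether the GTPases went together more than other genes. Over the 10 tumors the 4 closest pairs were Gbp3 with Gbp7 (r = 0.893), Gbp3 with Igtp (0.889), Gbp3 with Irgm2 (0.859) and Irgm2 with Igtp (0.855). With the group means removed they were Gbp3 with Gbp7 (0.807), Igtp with Ifi47 (0.789), Gbp2 with Ifi47 (0.778) and Gbp3 with Igtp (0.771). Both sets joined genes on the same chromosome as well as genes on different chromosomes. Against the mean of the other 8 genes, Igtp followed the family best (r = 0.918, and 0.885 with the group means removed). Over the 10 tumors Gbp6 followed it least (0.135, and 0.255 with the group means removed), and Iigp1 stood at 0.378 and 0.438. With the group means removed Irgm1 followed it least (0.092, against 0.522 over the 10 tumors).

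Among the other 18184 genes, those whose signal followed the mean standardized signal of the 9 GTPases most closely over the 10 tumors were Oasl1 (r = 0.976), Trim30a (0.938), Ifit2 (0.925), Ppp1r14bl (0.923), Dph5 (0.921), Parp12 (0.912), Oasl2 (0.911) and Mgam (0.911). Oasl1, Trim30a, Ifit2, Parp12 and Oasl2 are known interferon-induced genes, whereas Dph5 is an enzyme of diphthamide synthesis and Mgam a glucosidase of the gut. With the group means removed, the 8 closest were Ifit3 (0.946), Oasl1 (0.941), Arhgap6 (0.939), Wbp11 (0.938), Shroom4 (0.929), Zdhhc9 (0.926), Dph5 (0.923) and Sh2d6 (0.919). The highest values among so many genes over 10 tumors are high by selection, and the lists are a description.

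The ligand and the receptor chains of the pathway differed by 0.12 or less on the log2 scale, within the spread between tumors. Ifng had log2 signals of 3.30 ± 0.25 in Lov tumors and 3.18 ± 0.06 in Vhcl tumors (SD, n = 5 each), a difference of 0.12 (standard error 0.12; 2-sided p = 0.349 by exact permutation test). No detection call was used, so it cannot be read from this signal whether the Ifng transcript was present. Ifngr1, the chain that binds the ligand, averaged 7.07 ± 0.26 in Lov tumors and 7.04 ± 0.41 in Vhcl tumors (SD, n = 5 each), with a difference of 0.03 (standard error 0.19; 2-sided p = 0.873 by exact permutation test). Ifngr2, the signaling chain, averaged 6.57 ± 0.17 in Lov tumors and 6.59 ± 0.29 in Vhcl tumors (SD, n = 5 each), with a difference of -0.02 (standard error 0.14; 2-sided p = 0.960 by exact permutation test). Irf1, a transcription factor that interferon gamma induces and that itself binds ISRE sequences, averaged 8.26 ± 0.14 in Lov tumors and 8.29 ± 0.29 in Vhcl tumors (SD, n = 5 each; difference -0.04, standard error 0.14; 2-sided p = 0.817 by exact permutation test).

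Of 15 measured genes of interferon gamma signaling, from the ligand to the inhibitors, 3 were lower in Lov tumors at an unadjusted p under 0.05 and 0 were higher, with 9 negative differences and a median of -0.04. The transcription factors Stat2 and Irf9, which belong to the type I interferon complex that binds ISRE sequences, were among the 3. Stat2 averaged 5.44 ± 0.41 in Lov tumors and 5.93 ± 0.12 in Vhcl tumors (SD, n = 5 each), a difference of -0.49 (standard error 0.17; limma, unadjusted p = 0.0166, adjusted p = 0.928). Irf9 averaged 8.30 ± 0.22 in Lov tumors and 8.58 ± 0.10 in Vhcl tumors (SD, n = 5 each), a difference of -0.28 (standard error 0.11; limma, unadjusted p = 0.0299, adjusted p = 0.932). The third was Socs3, an inhibitor of cytokine signaling, at 5.52 ± 0.91 in Lov tumors and 6.54 ± 0.78 in Vhcl tumors (SD, n = 5 each), with wide overlap (difference -1.01, standard error 0.45; limma, unadjusted p = 0.0449; exact permutation test, 2-sided p = 0.103). Ptpn2, a phosphatase that dampens the pathway, differed by -0.41 (standard error 0.21; limma, unadjusted p = 0.0760).

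The further interferon gamma targets, which serve antigen presentation, chemokine signaling and macrophage activation, were spread about 0. Of 31 measured, 17 had a negative difference, the median was -0.07, and at an unadjusted p under 0.05 limma called 3 lower and 0 higher. Cxcl10, a chemokine that draws T cells and that both interferon types induce, averaged 4.87 ± 0.14 in Lov tumors and 5.47 ± 0.44 in Vhcl tumors (SD, n = 5 each), a difference of -0.60 (standard error 0.18; limma, unadjusted p = 0.00733, adjusted p = 0.919). The peptide transporter Tap1 differed by -0.37 (standard error 0.17) and the Fc receptor Fcgr1 by -0.34 (standard error 0.15), and the inflammatory caspase Casp4, which missed the threshold, by 0.44 (standard error 0.23).

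Of 21 other GTPases of interferon-inducible families looked for, 7 were read by a probe set of their own. Limma called 3 of these lower and 0 higher at an unadjusted p of 0.05 (median -0.14). They were listed by family, and their induction by interferon was not measured. The IRG relatives Irgc1 and Irgq, also among the 7, differed by -0.02 and 0.14. Probe sets that match several of the near-identical genes, such as those shared by Tgtp1 and Tgtp2, were not used. Mx1, an antiviral GTPase of the type I interferon response, averaged 4.76 ± 0.19 in Lov tumors and 6.09 ± 0.84 in Vhcl tumors (SD, n = 5 each), a difference of -1.33 (standard error 0.33; limma, unadjusted p = 0.00171, adjusted p = 0.919). Mx2 differed by -0.61 (standard error 0.15) and the IRG Gm4951 by -0.79 (standard error 0.30). Gbp2b, a close relative of Gbp2, differed by -0.14 (standard error 0.10), at low means of 3.33 in Lov tumors and 3.47 in Vhcl tumors. Gbp8 was as dim, at 3.30 in Lov tumors and 3.37 in Vhcl tumors. Without a detection call it cannot be read from these signals whether either transcript was present.

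Among the interferon lists set beside the GTPases, the targets of type I interferon had the most negative median. All 28 measured had a negative difference, with a median of -0.83, 21 passed an unadjusted limma p of 0.05 as lower and 0 as higher, and 8 had all Lov tumors below all Vhcl tumors. Some of these genes stand among those the study lists as lower in the same tumors, and Mx1 and Mx2 count here and among the GTPases, so the direction of the list has no independent support from it. The 4 with the lowest p were Ifit3 (-1.51, standard error 0.21), Ifit1 (-1.29, standard error 0.18), Rsad2 (-1.65, standard error 0.27) and Ifi27l2a (-1.83, standard error 0.29), all antiviral or interferon-induced proteins (limma, lowest adjusted p = 0.369). The mean log2 signal over the 28 genes was 7.57 in Lov A19, 7.47 in Lov A48, 7.55 in Lov A50, 7.28 in Lov A55 and 7.14 in Lov AB10, against 7.87 in Vhcl A45, 8.75 in Vhcl A49, 8.15 in Vhcl A54, 8.59 in Vhcl A59 and 7.91 in Vhcl AB11. In this list too Vhcl A49 and A59 were highest, as they were for the 9 GTPases. Whether the difference of the type I targets exceeded that of the GTPases was not tested.

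**Figure D5:**
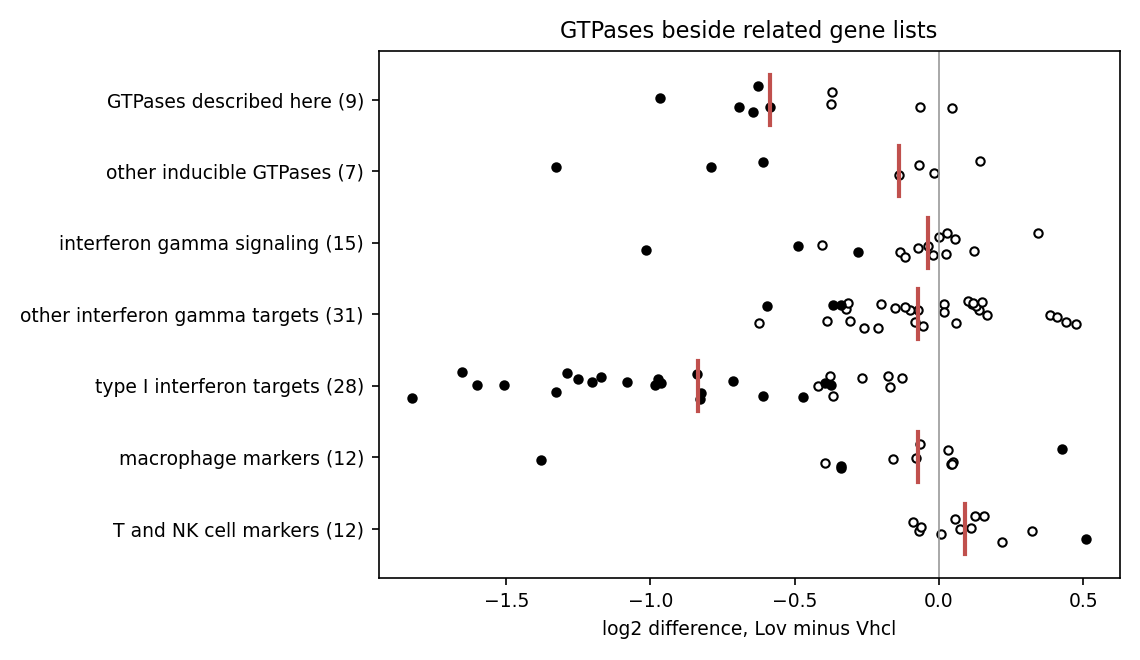
Log2 difference (x axis, Lov minus Vhcl, 5 tumors each) of single genes in the GTPase family and 6 other gene lists, with the number of measured genes in brackets; filled points had an unadjusted limma p under 0.05, open points did not, and red bars mark list medians. The points of type I interferon targets all lie below 0 (median -0.83), those of the 9 GTPases reach from -0.97 to 0.04 (median -0.59), and those of further interferon gamma targets lie on both sides of 0 (median -0.07).

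The machinery that brings these GTPases to membranes was set beside them. Of 14 genes of autophagy conjugation and of ubiquitin-dependent loading, 1 was lower at an unadjusted p under 0.05 and 0 were higher (median 0.05). The lower one was Trim21, an interferon-induced ubiquitin ligase, at means of 7.26 ± 0.20 in Lov tumors and 7.57 ± 0.11 in Vhcl tumors (SD, n = 5 each; difference -0.31, standard error 0.11; limma, unadjusted p = 0.0161). Sqstm1, the ubiquitin adaptor p62, differed by -0.40 (standard error 0.20), Gabarapl2 by 0.26 (standard error 0.14) and Atg5 by 0.34 (standard error 0.24). Of 8 inflammasome genes, which act downstream of GBPs in macrophages, limma called 0 in either direction at an unadjusted p of 0.05 (median -0.03). Isoprenyl groups, the membrane anchors of Gbp2 and some other GBPs, are made from mevalonate, whose synthesis Lov inhibits. Among 5 enzymes that attach or process these anchors, Rce1, a protease of prenylated proteins, was higher in Lov tumors (8.22 ± 0.12 in Lov tumors and 7.91 ± 0.25 in Vhcl tumors, SD, n = 5 each; difference 0.31, standard error 0.13; limma, unadjusted p = 0.0318, adjusted p = 0.932). Fnta, Pggt1b and Icmt differed by 0.20, 0.24 and 0.25 and Fntb by -0.12, none of them passing, and the arrays say nothing of the anchors themselves.

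Leukocytes, macrophages among them, also make these GTPases, and their markers were read in the same tumors. The mean log2 signal of 12 macrophage markers was 6.97 to 7.79 in Lov tumors and 7.46 to 7.98 in Vhcl tumors. Of the 12, limma called 3 lower and 1 higher at an unadjusted p of 0.05. The lower ones were Cd14 (-1.38, standard error 0.49), Fcgr1 and Itgam (-0.34 each), of which Fcgr1 is also an interferon gamma target. The higher one was the receptor Csf1r (0.43, standard error 0.15). By exact permutation test the 2-sided p was 0.0635 for Cd14, 0.0714 for Fcgr1 and 0.0397 for both Itgam and Csf1r. Itgam was dim, at means of 3.51 in Lov tumors and 3.84 in Vhcl tumors, and no detection call was used. Lov A50, the Lov tumor with the highest GTPase signals, had one of the 2 lowest macrophage means (7.11), and Vhcl A49 the highest of all (7.98). For 12 measured T and NK cell markers the mean was 4.80 to 4.96 in Lov tumors and 4.59 to 5.13 in Vhcl tumors, with 0 lower and 1 higher (Cd3g, 0.51, standard error 0.17). Several of these markers were dim, such as Klrk1 (means of 3.54 in Lov tumors and 3.63 in Vhcl tumors) and Ncr1 (3.66 and 3.54). Their mean therefore cannot show whether the number of T and NK cells was alike in both groups. The common leukocyte antigen Ptprc was 7.03 to 8.03 in Lov tumors and 7.08 to 8.27 in Vhcl tumors (difference -0.08). Mammary epithelial markers were 9.61 to 10.02 in Lov tumors and 9.91 to 10.37 in Vhcl tumors, with 8 of 9 differences negative and 0 of them at an unadjusted p under 0.05. The part of cell composition in the lower GTPase signals was not tested.

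Other tissue and array quality differed between single tumors. Salivary gland markers averaged 12.04 in Vhcl AB11 and 8.06 in Vhcl A59, against 5.23 to 7.14 in Lov tumors and 5.91 to 6.36 in the other Vhcl tumors. Skeletal muscle markers were at 8.42 in Lov A55, 8.54 in Vhcl A54 and 8.60 in Vhcl A59 and at 5.98 or lower elsewhere. For beta-actin, the excess of the 3′ over the 5′ log2 signal, a measure of RNA degradation, was 0.67 to 1.07 in Lov tumors and 0.80 to 1.35 in Vhcl tumors. Array medians were 4.97 to 5.05. Without Lov A19 and Vhcl AB11 together, and with the actin signal as a covariate, the 5 genes Gbp3, Gbp7, Irgm1, Irgm2 and Igtp had a lower signal at an unadjusted p under 0.05 in both fits. Vhcl A59, high in both tissue marker lists and in the actin excess, stayed in these fits. With A59 alone left out the same 5 genes passed that threshold, and no fit left out A59 and AB11 together. The ID prefixes A and AB are not explained in the labels, and with 1 AB tumor in each group no test within AB could be made. In the 8 tumors with prefix A alone, the same 5 genes passed that threshold.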

How the data were processed

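RNA of 10 whole tumors had been measured on Affymetrix whole-genome mouse arrays, with an array for each tumor. The deposited values are log2 signals that the authors obtained by RMA (Robust Multi-array Analysis) with affy, according to the submitters' processing notes, with versions not given in the sources used here. The values carry 2 decimals and were used without further scaling. RMA subtracts background and forces the arrays to 1 distribution, which compresses differences of dim transcripts and would hide a change common to all genes. Arrays have no sequencing depth, and their number limits the precision.

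The 45101 probe sets include 64 array controls, which were left out, and the other 45037 were fitted as Lov minus Vhcl with limma 3.58.1 in R 4.3.3 (prior degrees of freedom 3.61, 2-sided, Benjamini-Hochberg over all of them). Of these, 34945 carried 1 gene symbol, 932 several and 9160 none. A gene was read by its single-gene probe set of highest mean, and the signal of a probe set was never compared with that of another. The exact permutation test went through all 252 ways of choosing 5 of 10 tumors (scipy 1.17.1). Limma's standard errors are moderated. The fit was tested on simulated data, and the permutation test on fixed sets of values with known answers.

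Members and gene lists were chosen with earlier results of these data known. All 9 members are named, as are the ligand, both receptor chains, Irf1, up to 4 genes of lowest p in most other lists, and the 8 genes with the closest pattern. Groups, dose and schedule came from the labels. Tumor numbers within a group follow the order of deposition and pair no tumors, and no pair of arrays held the same values throughout. One gene of the signaling list is not reported here. Promoter windows came from RefSeq (GRCm38.p6), with 2 annotated starts for Gbp3, of which 1 held no match, and neighbors from the RefSeq gene table of the same assembly. Alternatives were another prior, an unmoderated test, array weights, rescaling, covariates, other probe set choices, a filter on dim probe sets, linear means and leaving out tumors.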

Additional observations from a re-analysis of the deposited data

Results flagged for a closer look

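Of 34 groups of 5 tumors examined with Dixon's test, 1 held a tumor beyond the 95% critical value for 5 samples, and chance alone picks out about 1 in 20 such groups. The second probe set of Gbp7 had a log2 signal of 6.12 in Lov AB10, while the other Lov tumors lay at 7.21 to 7.49, so that its gap to the nearest tumor took a share of 0.796 of the group's range. The main Gbp7 probe set also had its lowest Lov signal in that tumor (7.38), without reaching the critical value.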

How the results depend on the processing

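Gbp7, Irgm1, Irgm2 and Igtp had a lower signal in Lov tumors at an unadjusted p under 0.05 in all 22 alternative fits run, and Gbp3 in all 21 that measured it. The count of lower genes was 5 or 6 and that of genes past an adjusted p of 0.05 was 0 in these 22 fits, and the median difference stayed between -0.67 and -0.48. The sixth gene was Gbp2, without Vhcl A45. With probe sets ending in _at alone Gbp2 was called through its second probe set (-0.47), while Gbp3, which has no such probe set, was not measured. The number of genes with all Lov tumors below all Vhcl tumors was 1, but 2 with prefix A tumors alone and 2 without Lov A19 and Vhcl AB11 (Gbp3 and Gbp7 in both), 0 with probe sets ending in _at alone, and 1 to 4 when single tumors were left out. It was 4 without Lov A50, 3 without Vhcl A45, 2 without Vhcl A54 (Gbp3 and Irgm1) and 2 without Vhcl AB11 (Gbp3 and Gbp7). Fewer tumors separate more easily, and no share over all genes was computed for the sets with tumors left out.

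Differences near 0 changed sign. Iigp1 was 0.005 with the actin covariate and -0.196 to 0.016 when single tumors were left out. Gbp6 was -0.04 with the mean of its probe sets and -0.10 to 0.12 when single tumors were left out. Ifngr1 was -0.079 with the actin covariate, -0.001 as a ratio of linear means, -0.008 without Lov A19 and Vhcl AB11, and -0.069 to 0.138 when single tumors were left out. Ifngr2 was 0.015 with prefix A tumors alone, 0.12 with the actin covariate, and -0.09 to 0.09 when single tumors were left out. Irf1 was -0.124 to 0.038 when single tumors were left out. The cause was not tested. No paired analysis was possible because the labels give the tumors no shared numbers.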
